A study of Mus musculus with 6 samples.

Results

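The transcripts described here are 9 noncoding snoRNA hosts, Gas5 (growth arrest specific 5) and the small nucleolar RNA host genes Snhg1, Snhg3, Snhg5, Snhg6, Snhg7, Snhg8, Snhg11 and Snhg12, out of 23284 gene symbols listed for each library. They were selected by symbol, and all 9 symbols were listed. They were chosen from a re-analysis in which the differences between Tfam KO and Control in these same libraries were already known. Those differences are therefore given as a description. Calls of the members in fits over all genes are printed beside the share of all tested genes and are no support for a difference. Poly(A) RNA of mouse hearts (strain C57BL/6) at E13.5 of gestation was sequenced in 6 libraries. Tfam encodes the mitochondrial transcription factor A, which packages and transcribes mitochondrial DNA. The 3 Tfam KO libraries came from embryos of genotype Tfamfl/fl; Nkx2.5IRES-Cre/+, and the 3 Control libraries from Tfamfl/+; Nkx2.5IRES-Cre/+ embryos. Both groups therefore carried the Cre allele in the Nkx2-5 locus, active in the cardiac lineage, and the controls kept 1 intact Tfam allele. Each library was a pool of 5 hearts, in which fewer cells of a type and less RNA per cell cannot be told apart.

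A snoRNA host gene is transcribed and spliced so that its introns, not its exons, carry the main product. Each intron can release a small nucleolar RNA, which guides the methylation (box C/D class) or pseudouridylation (box H/ACA class) of ribosomal and spliceosomal RNA. The spliced exons of Gas5 and several Snhg genes hold only short, poorly conserved reading frames. Ribosomes that load on them expose the RNA to nonsense-mediated decay, so these transcripts are known to accumulate when translation is blocked. Many host genes start transcription at a pyrimidine-rich 5′ terminal oligopyrimidine (TOP) sequence, a feature they share with ribosomal protein genes.

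In the RefSeq annotation the loci differed in how many snoRNA genes they hold. Gas5 and Snhg1 held 8 each, Snhg12 held 4, Snhg3, Snhg5, Snhg7 and Snhg11 held 2 each, and Snhg6 and Snhg8 held 1 each. RefSeq windows around the start of transcription (GRCm38.p6, a later build than the mm9 named for these files) were matched for 8 of the 9 members, Gas5 having 2 annotated starts. Snhg6 was not among them. Several short runs of letters were searched because they bear on how host genes are transcribed. A C followed by at least 4 pyrimidines was searched on the gene strand, beginning within 10 bases of the start. It was held by 6 of the 8 members, in 6 of their 9 windows, and by 30.7% of all 32851 windows. The TATA box letters TATAAA, on the gene strand within 50 bases before the start, were held by Snhg5, Snhg7 and Snhg8 and by 2.63% of all windows. The full cyclic AMP response element TGACGTCA, searched on both strands over 300 bases, was held by Gas5 and by 1.79% of all windows. The C/EBP-ATF letters TGATGNAA and the E-box CACGTG, searched in the same way, were in 0 of the 8 members and in 3.97% and 7.15% of all windows. The matches of Gas5 were all at its downstream start, and its upstream start held none of these letters. A match to such letters is a description and not a mapped site.

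The windows below run from 60 bases before the annotated start through the first 30 bases of the transcript, 5′ to 3′ on the gene strand. They are shown for 7 hosts above the filter on low values, because these start regions are what the family's shared TOP-type transcription would rest on. Capitals mark TGACGTCA, TATAAA where it lies within 50 bases before the start, and a run of C and then at least 4 pyrimidines where it begins within 10 bases of the start. The same letters elsewhere in a window are left in lower case. The runs of Gas5, Snhg7, Snhg8 and Snhg12 lie at the annotated start or begin 1 or 2 bases before it, those of Snhg3 and Snhg5 lie inside the transcript, and the window of Snhg1 holds no match at these positions. In the order printed they are chr1:161035106-161035195 (+, the downstream start of Gas5), chr19:8723427-8723516 (+), chr4:132353657-132353746 (-), chr9:88522868-88522957 (-), chr2:26640215-26640304 (-), chr3:123508307-123508396 (-) and chr4:132308618-132308707 (+).
Gas5: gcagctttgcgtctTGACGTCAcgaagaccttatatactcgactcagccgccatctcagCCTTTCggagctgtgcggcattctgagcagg
Snhg1: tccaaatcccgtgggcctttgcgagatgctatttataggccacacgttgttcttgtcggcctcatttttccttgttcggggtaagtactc
Snhg3: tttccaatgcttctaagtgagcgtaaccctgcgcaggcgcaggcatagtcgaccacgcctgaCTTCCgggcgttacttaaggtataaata
Snhg5: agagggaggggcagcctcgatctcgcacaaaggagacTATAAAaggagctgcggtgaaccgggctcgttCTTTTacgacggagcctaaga
Snhg7: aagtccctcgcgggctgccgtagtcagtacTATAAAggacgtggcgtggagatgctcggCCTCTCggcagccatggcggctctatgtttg
Snhg8: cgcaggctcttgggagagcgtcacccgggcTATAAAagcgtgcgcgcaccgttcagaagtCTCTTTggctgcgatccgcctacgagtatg
Snhg12: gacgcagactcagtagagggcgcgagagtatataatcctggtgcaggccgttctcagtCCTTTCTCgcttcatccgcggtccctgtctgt

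The libraries held between 12370092 and 18078620 reads, recovered from the steps of the deposited values, and they did not share an overall scale. FPKM is reads per kilobase of gene and scaled to the size of the library. The precursor of ribosomal RNA, Rn45s, took 27.8% to 32.5% of reads in the controls and 25.4%, 31.2% and 14.95% in Tfam KO replicates 1, 2 and 3. The median log2 difference of all 10807 tested genes (mean of at least 1 FPKM) was 0.28 on the deposited scale. It was 0.00 once every library had been divided by its size factor, the median ratio of its genes to their mean. Differences are therefore given on both scales, and rose or fell is used of genes past the threshold on both. The heart markers were at high levels in both groups. Summed size-factor levels of 10 cardiomyocyte genes were 16138 to 20386 FPKM in the controls and 11199 to 18834 FPKM in the Tfam KO libraries. With size factors 0 of the 10 were higher and 2 lower (limma adjusted p under 0.05), against 1.99% and 2.6% of all tested genes. Before adjustment 0 were higher and 4 lower (limma, p under 0.05), where 1184 of all 10807 tested genes were lower. Their median log2 difference was -0.40 with size factors and -0.06 as deposited, where 0 were higher and 0 lower. Summed levels of 8 endothelial, 6 epicardial, 8 fibroblast, 10 erythroid and 9 macrophage markers overlapped between the groups, and 0 genes of these lists passed with size factors (limma, with 5 higher and 3 lower before adjustment, at p under 0.05). As deposited, 3 fibroblast, 1 endothelial and 1 macrophage marker were higher.

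Gas5 was the one host transcript whose Tfam KO libraries all lay above all controls on both scales. It was at 20.2, 24.2 and 22.9 FPKM in Control replicates 1, 2 and 3 and at 36.5, 31.7 and 51.0 FPKM in Tfam KO replicates 1, 2 and 3. Tfam KO replicate 3 was the highest and Control replicate 1 the lowest, with no overlap between groups. With size factors the values were 24.7, 27.9 and 22.7 FPKM against 31.2, 34.2 and 38.3 FPKM, a 1.38-fold higher mean (25.1 ± 2.59 to 34.6 ± 3.54, SD, n = 3 each). The log2 difference was 0.45 with size factors and 0.78 as deposited, against replicate SDs of 0.14 and 0.26. These values rest on 717 to 2176 reads a library, the most recovered for any member. Here and below, the reads of a gene are the smallest whole numbers that fit its values, known up to a whole factor. Leaving out each library in turn moved the size-factor difference between 0.37 and 0.52. The lowest of these came without Tfam KO replicate 3, the library with the smallest share of Rn45s.

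Of the 9 members, 8 passed the filter on low values and Snhg11 did not. With size factors, 0 of the 8 were past the threshold of the fit over all genes (limma, Benjamini-Hochberg adjusted p under 0.05) in either direction, where 1.99% of all tested genes were called higher and 2.6% lower. Before adjustment, Gas5 and Snhg6 were higher at p under 0.05 (2 of 8, against 8.49% of all tested genes). Limma-voom on the recovered reads called Gas5 (1 of 8, against 2.57%). As deposited, Gas5 was called (1 of 8, against 6.21% higher and 1.16% lower among all tested genes). All 3 Tfam KO libraries lay above all 3 controls for 1 of 8 members with size factors (11.8% of tested genes) and for 4 of 8 as deposited (Gas5, Snhg5, Snhg7 and Snhg12, against 25.6%). The 8 members had a median log2 difference of 0.23 with size factors and 0.51 as deposited. These counts describe genes picked with the contrast in view.

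**Figure D1:**
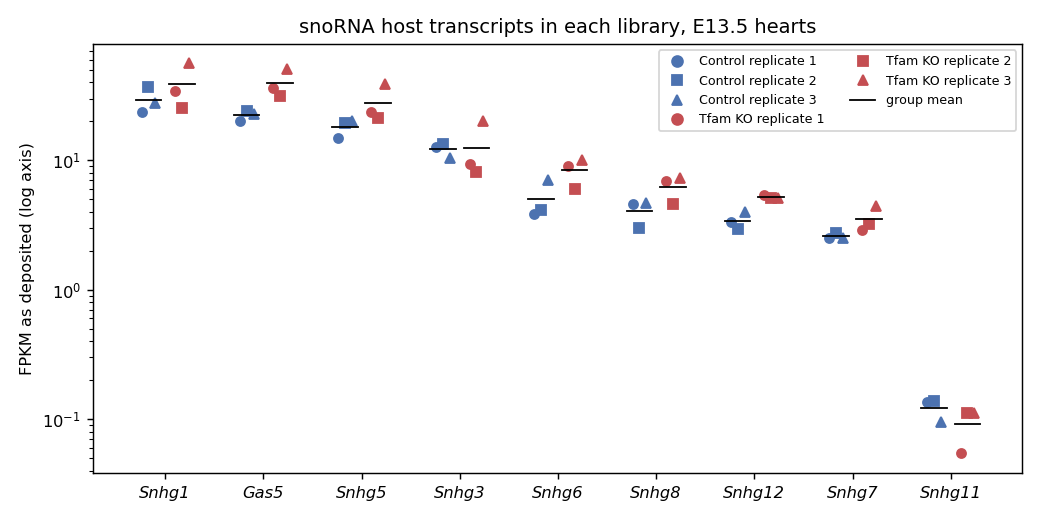
FPKM as deposited (log axis) of the 9 host transcripts in each of the 3 Control (blue) and 3 Tfam KO (red) libraries, ordered by their mean in the controls. Symbols mark the replicate number and bars the group mean. Gas5 is at 20.2 to 24.2 FPKM in the controls and 31.7 to 51.0 FPKM in the Tfam KO libraries, while the groups of Snhg1 and Snhg3 overlap.

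Snhg5, which carries box C/D snoRNAs of the U50 family, followed Gas5 in level. It was at 14.8, 19.5 and 20.04 FPKM in the controls and at 23.4, 21.4 and 39.0 FPKM in the Tfam KO libraries. As deposited the groups did not overlap, but with size factors they did (18.1, 22.4 and 19.9 against 20.04, 23.2 and 29.3 FPKM). The log2 difference was 0.24 with size factors and 0.56 as deposited. With size factors it was 0.10 without Tfam KO replicate 3 and 0.36 without Tfam KO replicate 1.

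Snhg6, host of Snord87, was at 3.88, 4.17 and 7.07 FPKM in the controls and at 9.01, 6.05 and 9.999 FPKM in the Tfam KO libraries. Control replicate 3 lay inside the range of the Tfam KO libraries on both scales. The log2 difference was 0.35 with size factors and 0.64 as deposited, the highest after that of Gas5 on both scales. It rests on 21 to 68 reads a library. Leaving out each library in turn gave 0.27 (without Control replicate 1) to 0.51 (without Control replicate 3) with size factors.

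Snhg8 and Snhg12 host box H/ACA snoRNAs, Snora24 in the first and Snora16a, Snora44 and Snora61 in the second, with the C/D type Snord99 also in Snhg12. Snhg8 was at 4.57, 2.99 and 4.72 FPKM in the controls and at 6.91, 4.61 and 7.32 FPKM in the Tfam KO libraries. Tfam KO replicate 2 lay between the controls. Snhg12 was at 3.32, 2.93 and 4.02 FPKM in the controls and at 5.39, 5.14 and 5.14 FPKM in the Tfam KO libraries, with no overlap as deposited. With size factors Tfam KO replicate 3 (3.86 FPKM) fell among the controls (3.39 to 4.07 FPKM). The log2 differences with size factors were 0.23 for both, and 0.51 and 0.50 as deposited. Single libraries moved these size-factor values: Snhg8 was at 0.07 without Control replicate 2 and 0.36 without Control replicate 1. Snhg12 was at 0.12 without Tfam KO replicate 2 and 0.34 without Tfam KO replicate 3.

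Snhg7, host of Snora17 and Snora43, was the lowest of the members that passed the filter. It was at 2.52, 2.72 and 2.53 FPKM in the controls and at 2.90, 3.22 and 4.44 FPKM in the Tfam KO libraries. The groups did not overlap as deposited and did with size factors. Its log2 difference was 0.06 with size factors and 0.32 as deposited, the latter near the shift of 0.28 in all genes. It rests on 25 to 55 reads a library, and leaving out each library in turn gave -0.01 to 0.17 with size factors. The value was below 0 without Tfam KO replicate 2 and without Control replicate 3.

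Snhg1, the host of a cluster of box C/D snoRNAs that includes Snord22, had the highest mean in the controls and a difference within its spread on both scales. It was at 23.5, 37.2 and 27.8 FPKM in the controls and at 34.5, 25.3 and 56.1 FPKM in the Tfam KO libraries. Control replicate 2 was above Tfam KO replicates 1 and 2. With size factors the means were 33.1 ± 8.5 and 33.0 ± 8.01 FPKM (SD, n = 3 each), a log2 difference of -0.00. As deposited the log2 difference was 0.33, against a replicate SD of 0.46. The size-factor value ran from -0.19 without Tfam KO replicate 3 to 0.19 without Control replicate 2.

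Snhg3, host of the H/ACA snoRNAs Snora73a and Snora73b that act in processing ribosomal RNA, had the lowest log2 difference of the tested members. It was at 12.6, 13.3 and 10.5 FPKM in the controls and at 9.30, 8.12 and 20.1 FPKM in the Tfam KO libraries. Tfam KO replicates 1 and 2 lay below all controls and replicate 3 above them, or between them with size factors (15.1 FPKM against 10.4 to 15.5 FPKM). The log2 difference was -0.38 with size factors and -0.06 as deposited, against replicate SDs of 0.39 and 0.48. Without Tfam KO replicate 3 the size-factor difference was -0.64, with both remaining libraries below all controls, so 1 library sets the size of this value.

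Snhg11, known from neurons, was near the limit of measurement in heart. It was at 0.135, 0.138 and 0.0943 FPKM in the controls and at 0.0544, 0.111 and 0.112 FPKM in the Tfam KO libraries, from 4 to 11 reads each. The groups overlapped and it was not tested. Of 12 neuronal markers, 1 (Gap43) passed the filter, and the neuron-restricted Stmn2 and Elavl4 had control means of 0.828 and 0.255 FPKM. The summed size-factor level of the neuronal markers was 16.96 to 26.0 FPKM in the controls and 11.4 to 16.2 FPKM in the Tfam KO libraries. Most of that sum was Gap43, which did not pass (mean 15.2 FPKM in the controls and 13.1 FPKM in Tfam KO, limma adjusted p = 0.0881). Single markers differed in direction, with Stmn2 at 0.517 FPKM and Elavl4 at 0.541 FPKM in Tfam KO, and their part in the Snhg11 values was not tested.

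**Figure D2:**
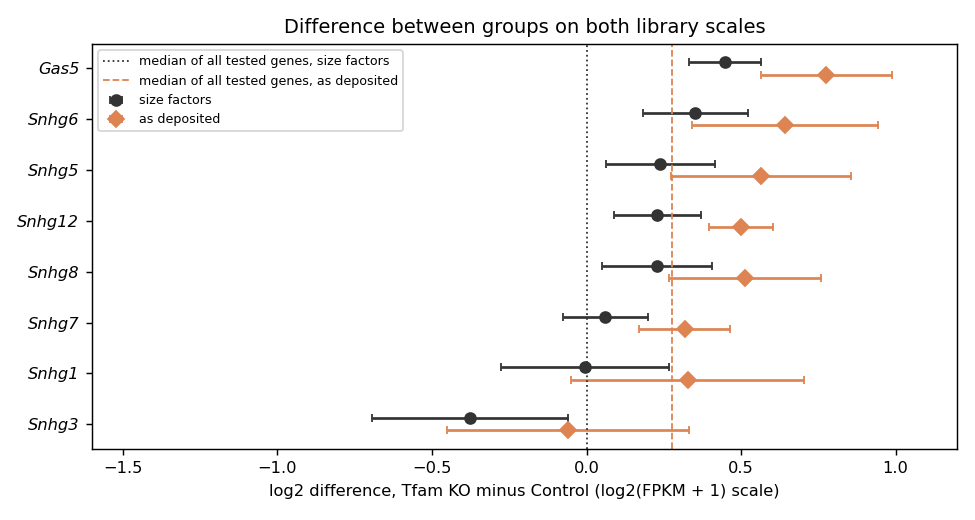
Log2 difference, Tfam KO minus Control, of the 8 members above the filter, with size factors (black) and as deposited (orange). Bars are the standard error from the pooled replicate SD, and vertical lines are the medians of all tested genes on each scale (0.00 and 0.28). Gas5 has the highest value on both scales and Snhg3 the lowest.

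FPKM is scaled by length, so an order of hosts depends on the gene lengths used, and these were not given. The shortest length that gives whole reads was 2554 bases for Gas5 and 476 bases for Snhg1. Gas5 had 717 to 1056 reads in the controls and Snhg1 had 156 to 239, each known up to a whole factor. The order below holds for the deposited FPKM only. In the controls the order was Snhg1 (29.5 ± 7.0 FPKM, SD, n = 3), Gas5 (22.4 ± 2.04), Snhg5 (18.1 ± 2.88), Snhg3 (12.2 ± 1.47), Snhg6 (5.04 ± 1.76), Snhg8 (4.09 ± 0.961), Snhg12 (3.42 ± 0.548), Snhg7 (2.59 ± 0.115) and Snhg11 (0.122 ± 0.0243). The control ranges of Snhg1 and Gas5 overlapped, and so did those of Snhg6 and Snhg8 and of Snhg8 and Snhg12. The other neighbours in the order did not overlap and kept their order in 6 of 6 libraries. Snhg1 was above Gas5 in 3 of 3 controls and in 1 of 3 Tfam KO libraries. The order Gas5, Snhg5, Snhg3 and Snhg6 held within every library of both groups.

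The read numbers show how much of the spread counting alone would give. They are known up to a whole factor per gene, and reads of PCR-amplified libraries are not independent molecules, so they cover counting error only. In the controls the coefficient of variation of Snhg1 with size factors was 25.7%, against 7.11% from counting, and that of Gas5 was 10.3% against 3.49%. Snhg3 in the Tfam KO libraries varied by 37.0% against 12.5%. For Snhg7 and Snhg12 the spread in the controls (11.9% and 9.79%) was smaller than counting alone would give on average (19.0% and 18.6%). In the Tfam KO libraries it was slightly larger than counting alone would give (17.4% against 16.9% for Snhg7 and 18.2% against 14.9% for Snhg12).

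The members differed from each other in which libraries were high. With size factors the median member lay 0.28 above its own mean on the log2 scale in Tfam KO replicate 3, and 0.06 above in replicate 2. The value was -0.02 in Tfam KO replicate 1 and -0.10, -0.02 and -0.15 in the controls. As deposited, 7 of the 8 members were highest in Tfam KO replicate 3, and with size factors 2 were (Gas5 and Snhg5). Snhg1 and Snhg3 were high in Control replicate 2, where Snhg6, Snhg8 and Snhg12 were low. That Tfam KO replicate 3 also had the lowest share of Rn45s is a measured fact whose part in these values was not tested.

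**Figure D3:**
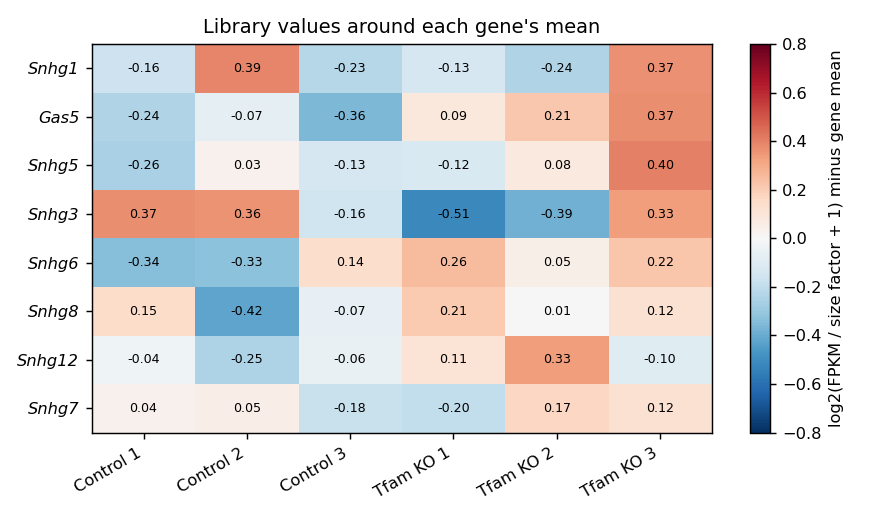
Each cell gives log2(FPKM / size factor + 1) of a member in 1 library minus that gene's mean over the 6 libraries, with red above and blue below the mean. Gas5 is below its mean in all 3 controls and above it in all 3 Tfam KO libraries, whereas Snhg1 is highest in Control replicate 2 (0.39) and Snhg3 ranges from -0.51 to 0.37.

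The 5 tested genes nearest to the mean profile of the members (root mean square distance of the 6 centred log2 values) were Ppp2cb, Tnpo3, Rfesd, Smcr7l and Hddc2, at distances of 0.03 each. The members themselves lay at distances from 0.11 (Snhg7) and 0.12 (Snhg5) to 0.35 (Snhg3). Gas5 lay at 0.16. The 5 genes were picked as the nearest of all named genes tested, so their small distances follow from the selection. They do not show how alike the members are. Ppp2cb, a catalytic subunit of protein phosphatase PP2A, had a log2 difference of 0.11 with size factors (adjusted p = 0.69, limma).

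Genes beside the hosts showed whether a difference was shared by the locus. The clearest contrast was at Snhg1, which runs in the opposite direction to its neighbour Slc3a2, the heavy chain shared by several amino acid transporters and a known target of the stress factor ATF4. Slc3a2 was at 11.6, 9.66 and 10.03 FPKM in Control replicates 1, 2 and 3, and rose to 49.96, 30.04 and 37.2 FPKM in the Tfam KO libraries (log2 difference 1.46, SE 0.17, limma adjusted p = 0.000935 with size factors, and 1.78 as deposited). The ratio of Slc3a2 to Snhg1 was 0.494, 0.260 and 0.361 in the controls and 1.45, 1.19 and 0.663 in the Tfam KO libraries, with no overlap. A test of this ratio was not made, since Snhg1 was picked with the contrast in view. Wdr74, a ribosome assembly factor on the same strand within 10 kb of Snhg1, had a log2 difference of 0.54 with size factors (adjusted p = 0.0736) and 0.83 as deposited (adjusted p = 0.00822).

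At Gas5 the neighbour Zbtb37, a zinc finger gene read from the opposite strand, had a log2 difference of 0.11 with size factors (limma adjusted p = 0.746). It overlaps Gas5 in the RefSeq annotation, and the strand setting of the counting was not given, so reads in the overlap cannot be assigned to a strand. Zbtb37 was at 1.26, 1.71 and 1.84 FPKM in the controls and at 1.81, 2.14 and 2.93 FPKM in the Tfam KO libraries, well under Gas5 in all 6. Rcc1, a chromatin-bound exchange factor, lies within 10 kb of Snhg3 in the RefSeq annotation and overlaps it on the same strand in the GENCODE annotation. The annotation used for the counting was not given, so reads in that overlap cannot be assigned to either gene. Rcc1 was at 1.82, 1.88 and 2.81 FPKM in the controls and at 4.59, 2.33 and 3.32 FPKM in the Tfam KO libraries (log2 difference 0.22, limma adjusted p = 0.535 with size factors). Phactr4 beside Snhg3, Trnau1ap beside Snhg12 and Fam69b beside Snhg7 did not pass on either scale, and 6030422M02Rik, Prss12 and Rab42-ps beside Snhg6, Snhg8 and Snhg12 were under the filter.

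**Figure D4:**
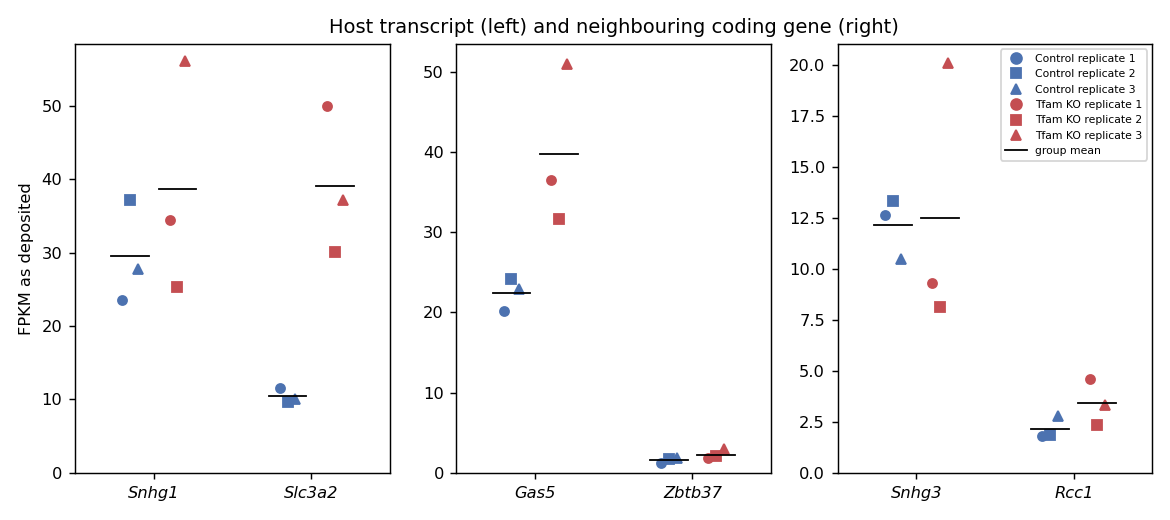
FPKM as deposited of 3 host transcripts and a coding gene beside each, by library (blue Control, red Tfam KO, bars for group means). Slc3a2 is at 9.66 to 11.6 FPKM in the controls and at 30.04 to 49.96 FPKM in the Tfam KO libraries, while its neighbour Snhg1 overlaps between groups. Zbtb37 and Rcc1 overlap between groups.

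The snoRNAs inside these loci could not be followed. Of those annotated, 10 were listed under their own symbols (Snord47, Snord22, Snord87, Snora43, Snora17, Snora24, Snora16a, Snora44, Snora61 and Snord99), with 0 to 19 reads a library. Snora24 was listed at 0 throughout. Snord22, inside Snhg1, had 5 to 11 reads in the controls and 12 to 17 reads in the Tfam KO libraries (log2 difference 0.45, limma adjusted p = 0.341 with size factors). It passed as deposited only (0.73, limma adjusted p = 0.0244), as did Snora43 of Snhg7 (0.81, limma adjusted p = 0.00396), on 0 to 7 reads a library. The deposited fit took each gene's spread from the trend over all genes, so these p-values do not measure the replicate spread of either snoRNA. Mature snoRNAs lack a poly(A) tail and are too short for such libraries.

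Other noncoding hosts, from a list of 10 snoRNA hosts and the microRNA host Mir17hg gave 1 call. Of 7 tested, 0 were higher and 1 lower with size factors (limma, 1 higher and 2 lower before adjustment at p under 0.05), and as deposited the counts were 1 and 1. Limma-voom called 0 in either direction. The next genes were chosen after their values were seen. Snhg20 (listed as 2810008D09Rik) fell from 2.03, 3.1 and 3.41 FPKM to 1.46, 1.69 and 1.1 FPKM (log2 difference -0.87, SE 0.18, adjusted p = 0.0236), on few reads. That call was lost without any one of Tfam KO replicates 1 and 3 and Control replicate 2, leaving 0 genes of the list lower. Snhg15 (Gm11974) was at 3.4, 3.28 and 1.68 FPKM in the controls and at 4.71, 6.12 and 7.18 FPKM in the Tfam KO libraries, and passed as deposited only (log2 difference 0.91). With size factors its log2 difference was 0.63 (limma adjusted p = 0.191). Epb41l4aos (2410004N09Rik) had a log2 difference of -0.67 with size factors (limma adjusted p = 0.0747) and -0.40 as deposited. These 3 size-factor values are larger in size than that of any member. Zfas1 (1500012F01Rik), a TOP-type host, had a log2 difference of 0.21 (adjusted p = 0.514).

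Past the adjusted threshold, protein-coding hosts of snoRNAs were called higher with size factors at a share near that of all genes. Before adjustment more of them were higher. Of 262 listed genes that hold an annotated snoRNA on their own strand, 211 were tested, and the size-factor fit called 5 higher and 1 lower (1.99% and 2.6% of all tested genes). On the deposited scale the counts were 28 and 0 (6.21% and 1.16% of all tested genes). Before adjustment, 36 of the 211 were higher and 7 lower with size factors (limma, p under 0.05). Among all 10807 tested genes, 918 (8.49%) were higher and 1184 lower. All 3 Tfam KO libraries lay above all 3 controls for 45 of the 211, against 11.8% of tested genes. Their median log2 difference was 0.09 with size factors and 0.39 as deposited. Iars, the cytosolic isoleucyl-tRNA synthetase, rose from 14.9 ± 2.79 to 54.1 ± 12.05 FPKM (SD, n = 3 each, log2 difference 1.46, limma adjusted p = 0.000111). Hspa9, the mitochondrial Hsp70 chaperone, rose from 105, 141 and 142 FPKM to 404, 349 and 505 FPKM. Pawr, a regulator of apoptosis, rose from 5.75 ± 1.34 to 16.6 ± 4.02 FPKM. In a shorter list of 38 coding hosts, mostly ribosomal protein and translation factor genes, the size-factor fit called 1 higher and 1 lower, and the deposited scale 14 and 0. Before adjustment, 14 of the 38 were higher and 1 lower with size factors (limma, p under 0.05). For 15 of the 38 all Tfam KO libraries lay above all controls with size factors. Their median log2 difference was 0.24 with size factors, near the 0.23 of the members. Tfam KO replicates 2 and 3 and Control replicates 1 and 3, each left out alone, gave 3 higher genes among the annotated coding hosts in each case.

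The proteins that act on host transcripts or their snoRNAs showed few calls. Of 27 tested factors of nonsense-mediated decay, 0 were higher and 0 lower with size factors (limma, 2 and 2 before adjustment at p under 0.05, and 0 higher and 1 lower by limma-voom), with a median log2 difference of -0.00. Upf1, the helicase at the core of the pathway, was at 12.7 ± 1.43 FPKM in the controls and 13.2 ± 0.924 FPKM in Tfam KO hearts, and its partner Upf2 at 5.99 ± 1.31 and 6.60 ± 2.75 FPKM (SD, n = 3 each). With size factors their log2 differences were -0.26 and -0.22 (limma adjusted p = 0.312 and 0.525). Etf1, the translation release factor, passed as deposited only (log2 difference 0.77, limma adjusted p = 0.0172). Its size-factor difference was 0.44 (limma adjusted p = 0.0923).

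Of 21 snoRNP proteins and assembly factors, 0 were higher or lower with size factors (limma, 3 higher and 0 lower before adjustment at p under 0.05, and 0 and 0 by limma-voom) and 2 were higher as deposited. These were Nop58 and Nop56, the paired core proteins of box C/D particles, which had log2 differences of 0.50 and 0.42 with size factors (adjusted p = 0.106 and 0.11) and 0.84 and 0.76 as deposited. The summed size-factor level of the list was 273 to 288 FPKM in the controls and 312 to 352 FPKM in the Tfam KO libraries, without overlap. The sum gives most weight to the genes at the highest levels. These were Nop58 (means of 58.1 and 106 FPKM as deposited) and Nop56 (28.9 and 50.3 FPKM). Gene by gene, 5 of the 21 had all Tfam KO libraries above all controls with size factors, against 11.8% of tested genes. The median log2 difference of the list was 0.09. Fbl, the methyltransferase of the C/D particle, and Dkc1, the pseudouridine synthase of the H/ACA particle, had log2 differences of 0.10 and 0.24 (adjusted p = 0.719 and 0.468).

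Coding mRNAs known as targets of nonsense-mediated decay had mostly positive differences, with 1 fall past the threshold. Of 8 tested, 4 rose and 1 fell on both scales, with 3 or 4 higher and 1 lower when each library was left out. Among all tested genes 1.99% were higher and 2.6% lower with size factors. The median log2 difference of the 8 was 0.55 with size factors and 0.81 as deposited. For 5 of the 8 all Tfam KO libraries lay above all controls with size factors, against 11.8% of tested genes. Ddit3, the stress transcription factor CHOP, rose from 6.04 ± 0.909 to 47.7 ± 9.86 FPKM, Atf4 from 44.2 ± 5.20 to 198 ± 33.5 FPKM and the growth arrest gene Gadd45a from 2.25 ± 0.519 to 7.53 ± 1.05 FPKM (SD, n = 3 each). Atf3 rose from 3.77 ± 0.437 to 8.73 ± 0.392 FPKM. Gadd45b fell from 7.48, 4.98 and 7.43 FPKM to 3.97, 2.97 and 2.88 FPKM (log2 difference -1.10, SE 0.18, limma adjusted p = 0.00667). The remaining tested targets, Ern1, Tbl2 and Nat9, had log2 differences of 0.36, -0.03 and 0.20 with size factors (limma adjusted p = 0.16, 0.939 and 0.677). Ddit3, Atf4 and Atf3 are also genes of the ATF4 stress program. The share of that program in their rise, or in that of Gadd45a, was not tested. The size-factor folds of the 8 members above the filter ranged from 0.771 (Snhg3) to 1.38 (Gas5), and no test of a difference from the decay targets was made.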

How the data were processed

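The authors deposited 1 table per library with log2(FPKM + 1) for 23284 symbols; the unit comes from the file names and the log2 scale from the values. Per the submitters' processing notes CASAVA 1.8.2, TopHat2 2.0.7, HTSeq 0.5.3 and mm9 were used, with no role given. For the annotation, the strand setting and the FPKM formula the sources used here give nothing. Library totals were recovered from genes of a single length in GENCODE vM21, and all 17876 genes above 0 gave whole reads (tolerance 1e-05 of a read, wider for high counts). The main fit was limma 3.58.1 (R 4.3.3) with a variance trend on log2(FPKM / size factor + 1) of genes averaging 1 FPKM or more, two-sided, with Benjamini-Hochberg adjustment and a threshold of 0.05. It was tested on simulated data. The deviations of same-numbered libraries correlated above 0.1 in 2 of 3 pairs, where all 3 were required, so the numbers were not taken to pair them. P-values with size factors measure the spread between these pools, drawn toward the trend over all genes (prior degrees of freedom 6.14). As deposited the prior degrees of freedom were infinite, so that fit used the trend alone. Its p-values and counts therefore do not measure the replicate spread of the single gene. The members and lists were chosen with earlier results of these data known. Named genes were the members, listed genes within 10 kb of them (1 is not reported here), the 3 largest rises and falls of each list on both scales and the 5 nearest profiles; others are marked as chosen after their values were seen, or serve as examples of a pathway role. Alternatives covered scaling, pseudocount, filter, variance model, limma-voom, a replicate block and leaving out each library.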

Additional observations from a re-analysis of the deposited data

How the results depend on the processing

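The median log2 difference of the host transcripts was 0.23 with size factors, 0.51 as deposited, and within its replicate spread of 0.118 of the former under the other 14 alternatives (0.16 to 0.24 when leaving out each library). Members past the threshold were 0 under 13 of 15 alternatives and 1, Gas5, as deposited and by limma-voom. The genes called higher over all genes were 215 and lower 281. As deposited these counts were 671 and 125, with no filter 144 were lower, and limma-voom on reads called 460 lower. Leaving out 1 library gave 133 to 213 higher and 127 to 361 lower genes, the lowest counts without Control replicate 3. With the replicate block, which assumes a pairing the labels do not state, 278 were higher and 421 lower, with 0 members called. The deviations of same-numbered libraries correlated at 0.359, 0.0681 and 0.16, and Control replicate 2 correlated best with Tfam KO replicate 3 (0.252). For Snhg6, Snhg7, Snhg8, Snhg11 and Snhg12 the smallest read numbers that fit the values were at most 96 a library. Numbers this low would limit what could be detected for these genes, though the true reads may be a whole multiple of them. No explanation of any difference was tested.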
